A study of Mus musculus with 19 samples.

Results

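The monoamine handling genes of the mouse retina described here are 9 genes chosen by name: the serotonin transporter gene Slc6a4 (ENSMUSG00000020838), the vesicular monoamine transporter genes Slc18a2 (ENSMUSG00000025094) and Slc18a1 (ENSMUSG00000036330), the synthesis enzyme genes Th (ENSMUSG00000000214) and Ddc (ENSMUSG00000020182), the monoamine oxidase genes Maoa (ENSMUSG00000025037) and Maob (ENSMUSG00000040147), and the receptor genes Htr1b (ENSMUSG00000049511) and Drd2 (ENSMUSG00000032259). They are 9 of the 47069 genes counted. The genes were picked with results of the comparison below already known, so their levels and fold changes are given as a description, with no p-value.

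RNA was sequenced from retinal cells of E16.5 mouse embryos, in 3 libraries of ipsilateral retinal ganglion cells (iRGCs) and 3 of contralateral retinal ganglion cells (cRGCs). All 6 samples are labelled as retina of strain C57/DBA F1, pooled male and female, genotype WT, although every embryo carried a Cre driver and the Sun1-GFP reporter. The reporter stands in the Rosa26 locus behind a stop cassette that Cre removes, so that GFP marks the nuclear envelope of cells with a history of Cre and of their descendants. The iRGCs were GFP-positive cells of Slc6a4-Cre retinas, a line made by GENSAT in which Cre follows regulatory sequence of the serotonin transporter gene. The cRGCs were GFP-positive cells of Pou4f2-Cre retinas after the ventrotemporal region had been cut away. There Cre was placed into the Brn3b (Pou4f2) locus by gene targeting, which labels retinal ganglion cells (RGCs) in general. Since Slc6a4 is the gene whose regulatory sequence defined the iRGC sort, its level is not independent of the way those cells were obtained. The reads counted on genes numbered 28193178 to 33638083 per library. Levels are in CPM, counts scaled to library size with TMM factors, in which 1 read was worth 0.0309 to 0.0384 CPM, and fold changes are of iRGCs over cRGCs from edgeR, with their standard error (SE). The paper describes its ATAC-seq replicates as biological and gives the embryos pooled for them, but does neither for RNA-seq. No source used here gives the embryos behind each RNA-seq library, and p-values for genes outside the 9 measure only the spread between these libraries. In such bulk samples fewer cells of a type and less RNA per cell cannot be told apart.

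Monoamine neurons build serotonin with tryptophan hydroxylase, or dopamine with tyrosine hydroxylase (TH), each followed by the decarboxylase DDC. The vesicular transporters VMAT1 (Slc18a1) and VMAT2 (Slc18a2) load the transmitter into vesicles, the plasma membrane transporter SERT (Slc6a4) takes serotonin back up, and the oxidases MAO-A and MAO-B degrade what stays in the cytosol. Several developing sensory neurons, among them ipsilaterally projecting RGCs and thalamic relay neurons, transiently take up and store serotonin without making it, and in the visual system this uptake is known to bear on the segregation of eye-specific projections, as is signalling through the presynaptic 5-HT1B receptor (Htr1b).

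The promoters of 4 of the genes are shown because they frame the comparison: Slc6a4, whose regulatory sequence drove Cre for the iRGC sort, and Slc18a2, Th and Htr1b, the 3 genes among the 9 with the most negative fold changes. Each sequence is taken from RefSeq for GRCm38.p6 and runs 5′ to 3′ over 260 bases, 250 before the transcription start and the first 10 transcribed. Capitals mark matches to 1 of 4 motifs searched on both strands: TGACGTCA, the full site of CREB-type factors, CAGCAGG, the core of the Zic motif, TAATTA, a LIM homeodomain core, and ATTAAT, a Pou4f core. These motifs do not share letters where they were found.
Slc6a4, chr11:76998347-76998606, plus strand: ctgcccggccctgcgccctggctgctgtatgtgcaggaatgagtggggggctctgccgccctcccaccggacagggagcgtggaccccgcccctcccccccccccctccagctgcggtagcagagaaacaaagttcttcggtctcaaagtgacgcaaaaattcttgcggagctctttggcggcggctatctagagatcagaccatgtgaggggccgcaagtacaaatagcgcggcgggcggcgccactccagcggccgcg
Slc18a2, chr19:59260628-59260887, plus strand: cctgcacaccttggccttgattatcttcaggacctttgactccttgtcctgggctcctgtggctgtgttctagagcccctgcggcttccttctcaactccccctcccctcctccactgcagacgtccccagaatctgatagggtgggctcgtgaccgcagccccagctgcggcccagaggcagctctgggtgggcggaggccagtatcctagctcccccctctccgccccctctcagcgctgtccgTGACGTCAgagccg
Th, chr7:142899986-142900245, minus strand: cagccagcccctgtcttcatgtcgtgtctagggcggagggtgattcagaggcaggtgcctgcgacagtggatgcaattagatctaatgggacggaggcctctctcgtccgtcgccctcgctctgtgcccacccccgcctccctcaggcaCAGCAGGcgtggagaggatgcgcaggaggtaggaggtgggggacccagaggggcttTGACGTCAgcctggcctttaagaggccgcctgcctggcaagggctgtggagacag
Htr1b, chr9:81633823-81634082, minus strand: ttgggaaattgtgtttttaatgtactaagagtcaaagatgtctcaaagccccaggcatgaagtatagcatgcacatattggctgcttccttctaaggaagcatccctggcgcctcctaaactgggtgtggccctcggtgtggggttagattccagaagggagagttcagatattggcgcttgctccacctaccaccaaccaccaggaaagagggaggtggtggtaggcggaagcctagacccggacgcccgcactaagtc

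TGACGTCA begins 45 bases before the start of Th and 4 bases before that of Slc18a2. Over windows of 300 bases, which reach 50 bases past the start, it occurs in 588 of the 32851 promoters of the RefSeq table, or 1.79%. The Th window also holds CAGCAGG, beginning 101 bases before the start, a motif of 10.5% of all windows. Neither Slc6a4 nor Htr1b holds any of the 4 motifs in its window, and nor do Maoa or Drd2. Of the 2 windows of Ddc, 1 holds ATTAAT, which 4.75% of all windows hold, and TAATTA, present in 5.29% of all windows, occurs in none of the 8 windows found for 7 of the 9 genes. A match describes letters in a window and not a bound site.

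All 9 genes passed the low-count filter, but 4 of them (Slc18a1, Maob, Ddc and Drd2) averaged under 3 CPM. For genes outside the 9, the threshold used below was an adjusted p-value under 0.1, past which 23.1% of the 15941 tested genes were lower in iRGCs and 23.3% higher. For 4 of the 9, every iRGC library lay below every cRGC library, which held for 28.2% of all tested genes, and for none did every iRGC library lie above, which held for 27.1% (55.3% in either direction). The median log2 fold change of the 9 was −0.13, against −0.0031 over all tested genes. Since the genes were chosen with this contrast known, nothing is read from these counts. Among the libraries, iRGC replicate 1 went against its label in Slc6a4 and iRGC replicate 2 held the most vascular transcripts. Without iRGC replicate 1 the log2 fold changes of Slc18a2, Th and Htr1b were −1.45, −4.29 and −1.49, and without iRGC replicate 2 they were −1.46, −3.06 and −1.96.

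**Figure D1:**
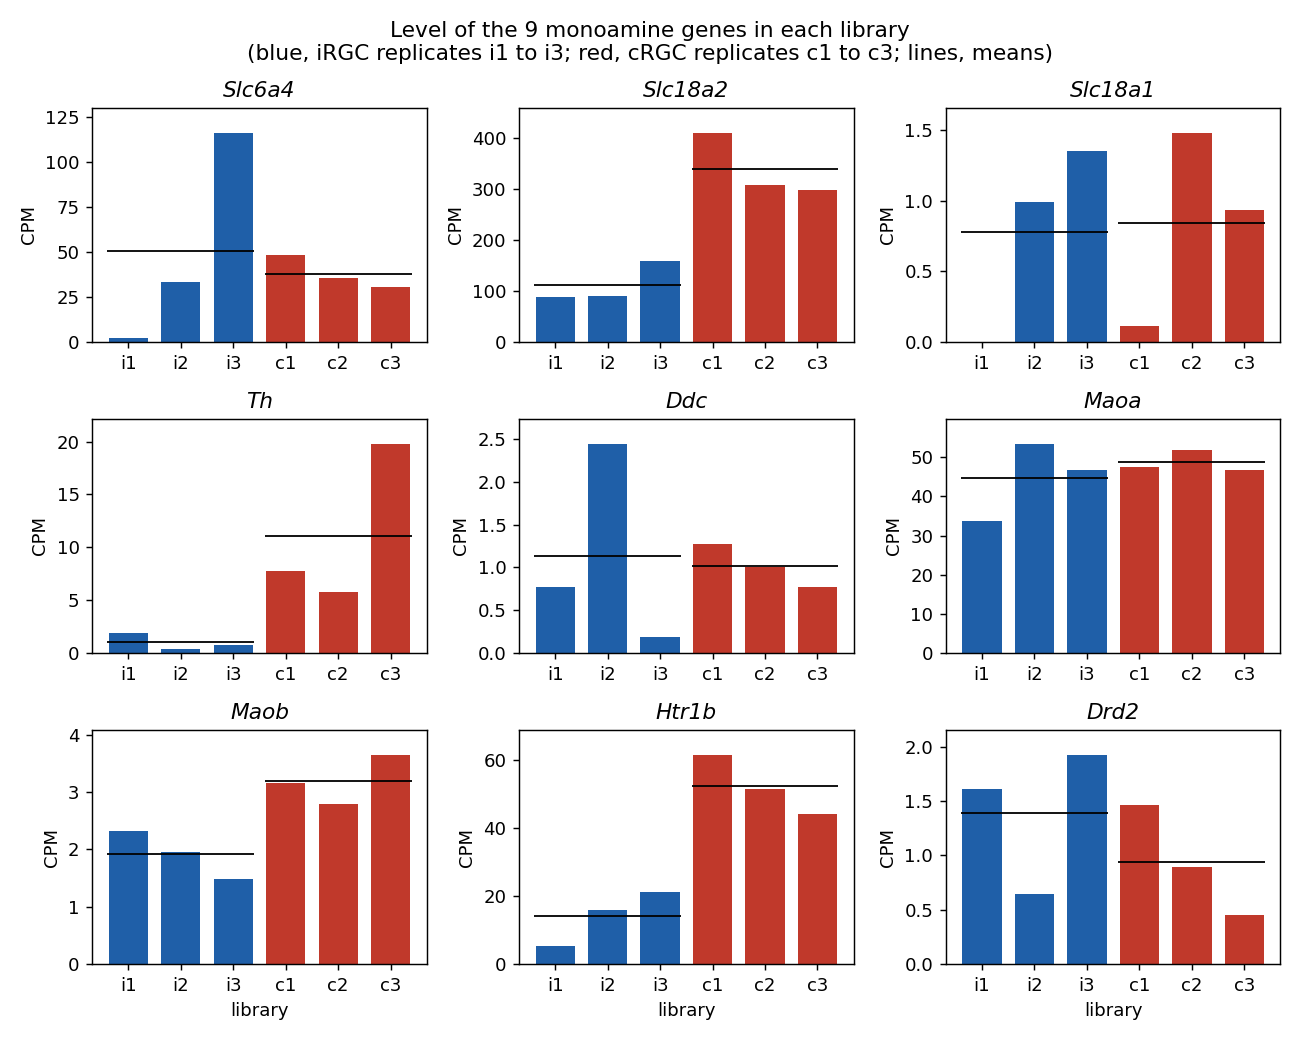
Level of each of the 9 genes in CPM (vertical axes from 0) in the 3 iRGC libraries (blue, i1 to i3) and the 3 cRGC libraries (red, c1 to c3), with horizontal lines at the means. Slc6a4 runs from 2.06 to 116 CPM within the iRGC libraries alone, while Slc18a2, Th, Maob and Htr1b are lower in every iRGC library than in any cRGC library.

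Slc6a4, which stands for serotonin uptake, did not separate the populations. Slc6a4 (chr11:76998603-77032340, GRCm38) had 2.06, 33.4 and 116 CPM in iRGC replicates 1, 2 and 3, from 64, 1080 and 3691 reads. In cRGC replicates 1, 2 and 3 it had 48.1, 35.4 and 30.5 CPM. The iRGC libraries therefore lay on both sides of the cRGC libraries, 1 below all of them, 1 within their range and 1 above. The means were 50.6 ± 59.1 CPM (SD, n = 3) in iRGCs and 38.0 ± 9.08 CPM (SD, n = 3) in cRGCs, with a log2 fold change of 0.41 (SE 0.93). Without iRGC replicate 1 the log2 fold change was 0.98, and without iRGC replicate 3 it was −1.11. With all libraries kept it was −0.86 with limma voom and −0.54 with the replicate number as a block. The direction therefore depended on 1 library and on the method.

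The spread of Slc6a4 among iRGC libraries was 56.5-fold, against 1.58-fold among cRGC libraries. Of the 10209 genes with a mean of at least 10 CPM in iRGCs, 6 (0.0588%) varied at least as much between the iRGC libraries, Slc6a4 included, and the median gene varied 1.29-fold. Of the other genes among these 6, 4 were highest in iRGC replicate 2 and 1, the complement gene C3, was highest in replicate 3 with 182 CPM. Zic2, the transcription factor that defines ipsilateral identity, was steady in the same libraries, at 133, 173 and 157 CPM in iRGCs and 57.0, 60.2 and 65.7 CPM in cRGCs. The ratio of Slc6a4 to Zic2 reads was 0.0154, 0.193 and 0.740 in iRGC replicates 1 to 3 and 0.844, 0.588 and 0.464 in cRGC replicates 1 to 3. In this ratio iRGC replicate 3 lay between cRGC replicates 1 and 2, and the other iRGC libraries lay below every cRGC library. Zic2 was itself higher in iRGCs, which lowers the ratio there. Of the 5 ipsilateral markers, Zic2, Zic1, Zic5 and Foxd1 were higher in iRGCs and the guidance receptor gene Ephb1 was not past the threshold (adjusted p = 0.499, edgeR). The label of iRGC replicate 1 was thus matched by its Zic2 level, above that of every cRGC library, and not by its Slc6a4 level. The 6 contralateral markers, led in CPM by Pou4f1, were all lower in iRGCs. Platelets also take up serotonin through SERT, and of their 5 markers Gp9, Ppbp and Gp1ba had no read. Pf4 had 38, 21 and 4 reads in iRGC replicates 1 to 3 and none in cRGCs. The list, led by Itga2b, summed to 3.89, 1.27 and 1.70 CPM in iRGC replicates 1 to 3 and to 2.31, 1.59 and 1.42 CPM in cRGC replicates 1 to 3, and the part of platelets in the Slc6a4 level was not tested.

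The genes on both sides of Slc6a4 did not share its spread. Blmh, a cysteine protease gene 11.2 kb upstream, had 183, 233 and 272 CPM in iRGCs and 158, 172 and 179 CPM in cRGCs (log2 fold change 0.44, SE 0.15, adjusted p = 0.0422). Nsrp1, a splicing regulator gene 11.95 kb downstream, had 53.6, 38.5 and 66.2 CPM in iRGCs and 43.8, 42.5 and 38.8 CPM in cRGCs and was not past the threshold (adjusted p = 0.198). Among 10104 protein-coding genes with a mean of at least 10 CPM, the genes most like Slc6a4 over the 6 libraries by Pearson's r of log2 levels were Ngrn (r = 0.994), Urgcp (0.983) and the POU factor gene Pou3f2 (0.981). Only 22 of them had an r above 0.95, and these 3 moved far less than Slc6a4, by 1.90-, 1.51- and 1.43-fold between their extreme libraries.

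Slc18a2 was the main vesicular transporter transcript. It was the most abundant of the 9 genes per length in both populations, with 21.5 ± 7.60 CPM per kb of exon (SD, n = 3) in iRGCs and 65.0 ± 11.9 CPM per kb (SD, n = 3) in cRGCs. Its level (chr19:59260896-59296012) was 88.4, 90.6 and 158 CPM in iRGC replicates 1 to 3 and 411, 308 and 299 CPM in cRGC replicates 1 to 3. The populations did not overlap, and the log2 fold change was −1.59 (SE 0.24), between −1.93 and −1.45 with any 1 library left out. Slc18a1, the form typical of endocrine cells, had 0, 32 and 43 reads in iRGCs and 3, 43 and 29 reads in cRGCs. A count of 0 in iRGC replicate 1 allows a level of up to 0.0965 CPM (3 reads), and the log2 fold change of −0.11 (SE 1.48) gives no direction.

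The 2 transporters thus had different patterns. Slc18a2 stood at 43.0, 2.71 and 1.36 reads per Slc6a4 read in iRGC replicates 1 to 3 and at 8.54, 8.71 and 9.81 in cRGC replicates 1 to 3. The ratio was near-constant in cRGCs and spread on both sides of it in iRGCs. Pdzd8, which ends 1.17 kb from Slc18a2, missed the threshold, with an adjusted p of 0.347 (log2 fold change 0.17, SE 0.13), and the optic stalk factor gene Vax1, 90.8 kb away on the other side, had 1.13 to 4.45 CPM and was not past it either (adjusted p = 0.241).

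RGC marker genes moved with Slc18a2. The list of RGC markers, led in CPM by the neurofilament gene Nefm, had 9 of 11 genes lower in iRGCs, 1 higher (Atoh7, a factor of newborn RGCs) and 1 not past the threshold (Thy1, adjusted p = 0.121), with a median log2 fold change of −1.94. The list holds Pou4f2, whose locus carried Cre for the cRGC sort, and Sncg, which the paper reports as selective to cRGCs. It is therefore not neutral between the populations. Its summed level was 2302, 3284 and 4813 CPM in iRGC replicates 1 to 3 and 11830, 10892 and 13680 CPM in cRGC replicates 1 to 3. The geometric mean level was 142, 176 and 259 CPM in iRGC replicates 1 to 3 and 570, 543 and 547 CPM in cRGC replicates 1 to 3. As a share of that mean, Slc18a2 stood at 62.4%, 51.4% and 61.1% in iRGCs and at 72.1%, 56.7% and 54.7% in cRGCs. These shares overlapped and spanned 1.40-fold over the 6 libraries, against 4.65-fold for the Slc18a2 level itself, and on this scale, chosen after the data were seen, the difference in mean log2(CPM + 0.5) was −0.06, against −1.63 without it. The markers of retinal progenitors ran the other way, with all 11 higher in iRGCs, a median log2 fold change of 2.55 and summed levels, led by Ccnd1, of 8822, 7707 and 6527 CPM in iRGC replicates 1 to 3 and 725, 1987 and 1235 CPM in cRGC replicates 1 to 3. Their geometric means were 441, 437 and 319 CPM in iRGCs against 41.2, 108 and 67.1 CPM in cRGCs. The part of cell composition in the fold change of Slc18a2 was not tested. Hras, Klf8 and Hpcal1 were the genes most like Slc18a2, each with r = 0.998, and 1445 of the 10104 genes compared had an r above 0.95.

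**Figure D2:**
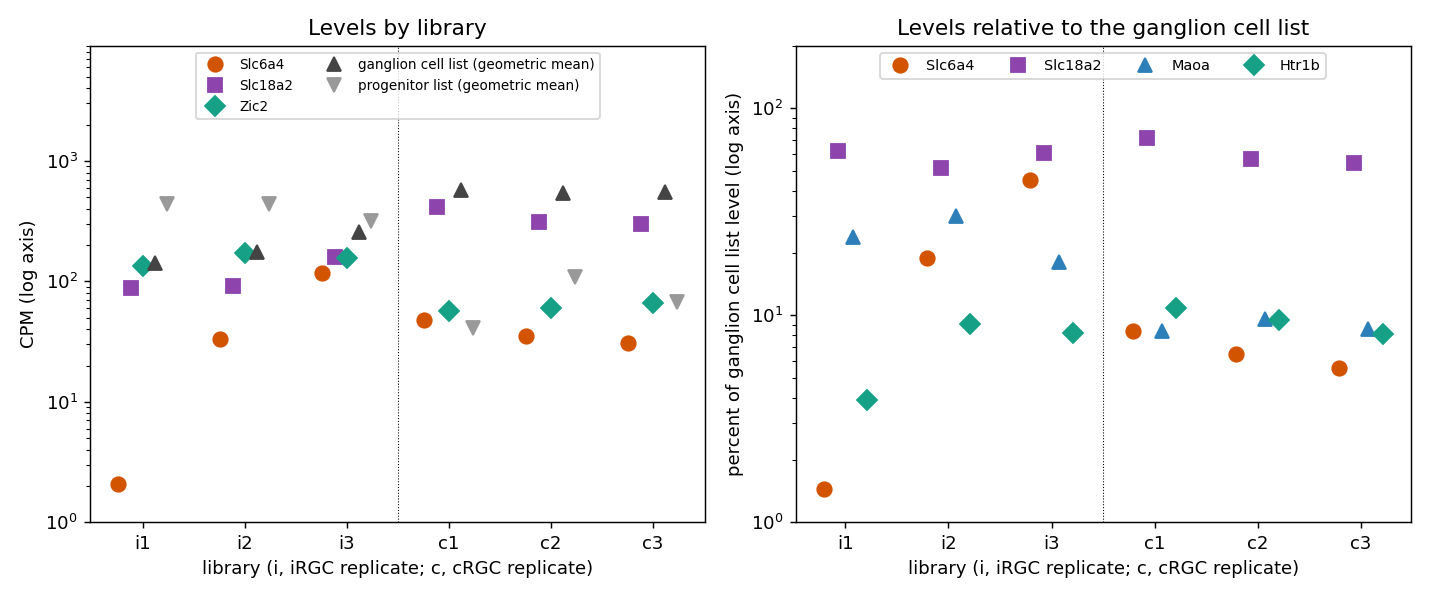
Left, levels in CPM on a log axis of Slc6a4, Slc18a2 and the ipsilateral factor Zic2, with the geometric means of the RGC and progenitor marker lists, in the 3 iRGC (i1 to i3) and 3 cRGC (c1 to c3) libraries. Right, levels of 4 genes as a percentage of the RGC list mean on a log axis. Slc18a2 stays between 51.4% and 72.1% in the 6 libraries, while Slc6a4 runs from 1.45% in i1 to 44.9% in i3.

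Relative to the same list, Slc6a4 stood at 1.45%, 18.9% and 44.9% in iRGC replicates 1 to 3 and at 8.44%, 6.52% and 5.57% in cRGC replicates 1 to 3. On this scale iRGC replicates 2 and 3 lay above every cRGC library and iRGC replicate 1 below every one.

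Synthesis enzyme transcripts were scarce in iRGCs. Th (chr7:142892752-142931128), the rate-limiting enzyme of catecholamine synthesis, had 1.90, 0.371 and 0.757 CPM in iRGCs, from 59, 12 and 24 reads, and 7.73, 5.73 and 19.8 CPM in cRGCs, from 201, 166 and 613 reads. Every iRGC library lay below every cRGC library, and cRGC replicate 3 stood far above the other 2. The log2 fold change was −3.46 (SE 0.70), −2.71 without cRGC replicate 3 and −4.29 without iRGC replicate 1. Relative to the RGC list Th stood at 1.34%, 0.210% and 0.292% in iRGCs and at 1.36%, 1.05% and 3.61% in cRGCs, and on this scale the populations overlapped. In the retina TH marks dopaminergic amacrine cells. The 9 amacrine markers followed here are of amacrine cells in general, and 8 were higher in iRGCs, with a median log2 fold change of 1.54. Their summed level, led in iRGCs by Tfap2b, was 391, 357 and 492 CPM in iRGCs and 138, 181 and 125 CPM in cRGCs. The part of amacrine cells in the Th reads was not tested. Markers of autonomic neurons, which also make TH, were at or near 0, with Hand2 and Dbh without a read in any library, and with 4 reads of Phox2a in cRGC replicate 3 and 4 reads of Gata3 in iRGC replicate 3. Xkr7 (r = 0.995), Ccdc82 and Asap1 (both 0.991) were the genes most like Th, and 77 genes had an r above 0.95. The nearest tested genes, Igf2os and R74862, had adjusted p-values of 0.0779 (log2 fold change 2.99) and 0.464.

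Ddc (chr11:11814101-11898144), the decarboxylase common to serotonin and dopamine synthesis, had 0.772, 2.44 and 0.189 CPM in iRGCs and 1.27, 1.00 and 0.775 CPM in cRGCs. The populations overlapped, iRGC replicate 2 had the highest level and iRGC replicate 3 the lowest, and the log2 fold change of 0.16 (SE 1.01) ranged from −1.08 to 0.65 with any 1 library left out. Ddc thus had 6 to 79 reads per library. Its neighbours were higher in iRGCs, Fignl1, a DNA repair gene 5.14 kb away, by a log2 fold change of 2.11 (adjusted p = 4.18e-04) and Grb10, an adaptor of growth factor receptors, by 1.85 (adjusted p = 5.14e-04). The genes most like Ddc included Ercc6 (r = 0.972) and Ttc14 (r = 0.949).

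Of 7 further synthesis enzyme genes, 3 could be tested. Tph1, the tryptophan hydroxylase of peripheral tissues and the pineal gland, had 0.997, 0.402 and 0.347 CPM in iRGCs and not 1 read in any cRGC library. The iRGC mean was 5.53 times a floor of 3 reads per cRGC library (adjusted p = 0.0279, edgeR), and 3.56 times without iRGC replicate 1 (adjusted p = 0.0660). Tph1 passed the low-count filter through its iRGC reads alone, so these p-values are given as a description. With the replicate number as a block the adjusted p-value was 0.131. Mast cells also make Tph1, and mast cell protease transcripts were counted in the iRGC libraries alone, with Tpsb2 at 90, 0 and 0 reads and Cpa3 at 36, 152 and 0 reads in iRGC replicates 1, 2 and 3. Of the 6 mast cell genes, 5 had reads in iRGC libraries alone, and the one with the highest CPM, Kit, was lower in iRGCs (log2 fold change −0.66, adjusted p = 0.0205). With Kit in it, the summed level of the list was 39.4, 57.3 and 46.3 CPM in iRGC replicates 1 to 3 and 73.7, 61.3 and 71.8 CPM in cRGC replicates 1 to 3, and the part of mast cells in the Tph1 reads was not tested. Tph2, the neuronal form, had 0, 0.556 and 1.10 CPM in iRGCs and 1.58, 2.93 and 1.94 CPM in cRGCs and was not past the threshold (adjusted p = 0.253). Dbh, which turns dopamine into noradrenaline, had no read.

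Of the oxidase transcripts Maoa was the abundant one. Its level (chrX:16619698-16687818) was 33.8, 53.4 and 46.9 CPM in iRGCs and 47.6, 51.9 and 46.7 CPM in cRGCs. The populations overlapped, with means of 44.7 ± 10.0 and 48.7 ± 2.77 CPM (SD, n = 3 each) and a log2 fold change of −0.13 (SE 0.17), the smallest SE among the 9. Maob (chrX:16709282-16817366), whose gene lies 21.5 kb from Maoa in tail-to-tail orientation, had 2.32, 1.95 and 1.48 CPM in iRGCs and 3.15, 2.80 and 3.65 CPM in cRGCs. Every iRGC library lay below every cRGC library for Maob, and the log2 fold change of −0.74 (SE 0.51) rests on 47 to 113 reads per library. As a share of the RGC list mean the direction turned, with 1.63%, 1.10% and 0.572% in iRGCs and 0.553%, 0.514% and 0.666% in cRGCs, where the populations overlapped. Per kb of exon, Maoa exceeded Maob by 9.76, 18.4 and 21.2 times in iRGCs and by 10.1, 12.4 and 8.58 times in cRGCs. The form that prefers serotonin was therefore the more abundant in all 6 libraries.

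Both oxidase genes are X-linked, and libraries pooled male and female embryos. Xist, expressed from the inactive X chromosome of females, had 877, 812 and 651 CPM in iRGCs and 1339, 1106 and 372 CPM in cRGCs. Maoa varied by 1.58-fold among iRGC libraries and by 1.11-fold among cRGC libraries. The part of sex in the oxidase levels was not tested. Beyond Maob, the norrin gene Ndp, a ligand of a Wnt receptor, was lower in iRGCs (log2 fold change −1.06, SE 0.28, adjusted p = 0.0157), and so was Cask, the nearest tested gene on the far side of Maoa (−1.07, adjusted p = 2.18e-04). As a share of the RGC list mean, Maoa stood at 23.8%, 30.3% and 18.1% in iRGCs and at 8.35%, 9.55% and 8.54% in cRGCs, without overlap, while its CPM overlapped. Atg4c (r = 0.993), Tab1 and Uros were most like Maoa, and Stk36 (r = 0.989), Cnksr2 and Eps15l1 most like Maob.

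Of 4 further breakdown enzyme genes 1 was past the threshold. Aldh1a1, an aldehyde dehydrogenase that clears the aldehydes of monoamine oxidation and makes retinoic acid in the dorsal retina, rose in iRGCs, with 147, 532 and 103 CPM against 10.0, 20.3 and 30.5 CPM in cRGCs (log2 fold change 3.68, SE 0.65, adjusted p = 0.00218). Without iRGC replicate 2 the log2 fold change was 2.62 (adjusted p = 0.00308). Its highest value, in iRGC replicate 2, came in the library with the most endothelial, mural and erythroid transcripts. The mural list summed to 132, 274 and 107 CPM in iRGC replicates 1 to 3 and to 20.8, 31.2 and 22.4 CPM in cRGCs. Most of this was Notch3 except in iRGC replicate 2, with 113, 117 and 83.5 CPM in iRGCs and 17.1, 26.7 and 18.6 CPM in cRGCs. Rgs5 had 3.76, 93.8 and 2.24 CPM in iRGC replicates 1 to 3. The erythroid list summed to 12.2, 92.7 and 15.2 CPM in iRGCs and to 0, 5.11 and 0.258 CPM in cRGCs. The endothelial list's geometric mean was 8.10, 38.9 and 1.74 CPM in iRGC replicates 1 to 3 and 0.707 to 0.976 CPM in cRGCs, and its summed level, led by Kdr, 448, 648 and 436 CPM in iRGCs and 88.7, 109 and 71.8 CPM in cRGCs. Of these sums Kdr alone made 366, 320 and 418 CPM in iRGCs and 83.7, 103 and 67.6 CPM in cRGCs. Cdh5 had 15.2, 81.3 and 0.158 CPM in iRGC replicates 1 to 3. All 6 tested genes of the 10 were higher in iRGCs, Cdh5 and Tie1 had no read in cRGCs, and the part of these cells in the Aldh1a1 level was not tested. Aldh2, the mitochondrial aldehyde dehydrogenase, had an adjusted p-value of 0.981.

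Receptor genes differed among themselves. Htr1b (chr9:81628291-81633828), the inhibitory 5-HT1B autoreceptor and heteroreceptor of axon terminals, had 5.50, 15.9 and 21.3 CPM in iRGCs and 61.5, 51.4 and 44.2 CPM in cRGCs. The populations did not overlap, with a log2 fold change of −1.88 (SE 0.41) that ranged from −2.29 to −1.49 with any 1 library left out. The noncoding gene D430036J16Rik lies on the opposite strand and shares 18.0% of the exonic bases of Htr1b. Its own log2 fold change was −1.93 (SE 0.37, adjusted p = 0.00316), and as the strand setting of the counting is not given in the sources used here, reads on the shared bases cannot be assigned to either gene. Relative to the RGC list Htr1b stood at 3.88%, 9.05% and 8.20% in iRGCs and at 10.8%, 9.46% and 8.08% in cRGCs, where the populations overlapped and iRGC replicate 1 was lowest. That library was also the lowest for Slc6a4. Cib2, Sptbn4 (both r = 0.998) and Ubl7 (0.997) were the genes most like Htr1b, and 905 genes had an r above 0.95. The nearest tested genes beyond the overlapping one, Myo6 and Mei4, were not past the threshold (adjusted p = 0.18 and 0.329).

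Drd2 (chr9:49340627-49408177), the inhibitory D2 dopamine receptor, had 1.61, 0.649 and 1.92 CPM in iRGCs and 1.46, 0.897 and 0.452 CPM in cRGCs. The populations overlapped, and the log2 fold change was 0.57 (SE 0.86) on 14 to 61 reads per library. Relative to the RGC list Drd2 stood at 1.13%, 0.368% and 0.742% in iRGCs and at 0.256%, 0.165% and 0.0825% in cRGCs, without overlap. Its neighbour Ttc12 was higher in iRGCs by a log2 fold change of 1.01 (adjusted p = 0.0875), whereas Tmprss5 on the other side had an adjusted p-value of 0.101. The 3 genes most like Drd2, Rapgef2 (r = 0.984), Higd2a and Osgin2, moved by 1.49- to 1.62-fold over the 6 libraries.

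Across roles, the mean level per length was highest for Slc18a2 and lowest for Slc18a1 in both populations. In cRGCs Slc18a2 (65.0 CPM per kb) was followed by Maoa (11.7 ± 0.665), Htr1b (11.1 ± 1.84) and Slc6a4 (8.39 ± 2.00), and from one to the next of these 3 the libraries overlapped. Th, which overlapped with Slc6a4, followed with 4.69 ± 3.22 CPM per kb, then Maob with 1.15 ± 0.153, Drd2 with 0.368 ± 0.199, Ddc with 0.227 ± 0.0554 and Slc18a1 with 0.156 ± 0.128 (SD, n = 3). The last 3 overlapped from one to the next, whereas Maob overlapped neither with Th nor with Drd2. In iRGCs Slc18a2 (21.5 CPM per kb), Slc6a4 (11.2 ± 13.0) and Maoa (10.7 ± 2.40) came first, Htr1b stood at 3.01 ± 1.70, and Maob, Drd2, Th, Ddc and Slc18a1 had means between 0.145 and 0.687 CPM per kb. These 5 overlapped from one to the next, and the lowest of all was Slc18a1 in iRGC replicate 1, Th in replicate 2 (0.157 CPM per kb) and Ddc in replicate 3 (0.0424 CPM per kb). Slc18a2, Slc6a4 and Maoa thus exceeded Th and Ddc on average in both populations. Within single libraries Slc6a4 was below Th in iRGC replicate 1 (0.454 against 0.803 CPM per kb) and in cRGC replicate 3 (6.73 against 8.37 CPM per kb).

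**Figure D3:**
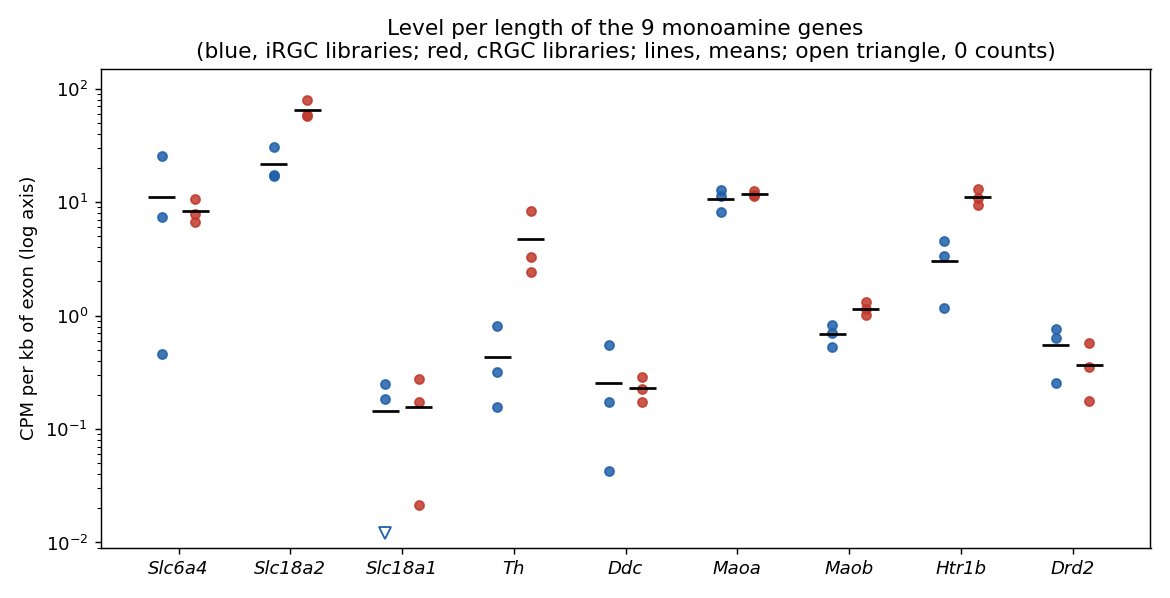
Level of the 9 genes in CPM per kb of exon on a log axis, with 1 point per iRGC (blue) or cRGC (red) library, lines at the means and an open triangle for the iRGC library with 0 reads of Slc18a1. Slc18a2 has the highest mean in both populations and the synthesis gene Ddc a mean of 0.227 to 0.254 CPM per kb.

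The wider pathway was followed in 67 further genes in 9 groups by role, of which 57 had a read and 34 could be tested. By the edgeR test 9 were higher in iRGCs, 4 lower and 21 not past the threshold, that is 13 of 34 where 46.4% of all tested genes were called, and the median log2 fold change was 0.39 against −0.0031 over all tested genes.

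Transporters of the low-affinity, high-capacity kind were represented by Slc29a4, the plasma membrane monoamine transporter PMAT. Slc29a4 was lower in iRGCs, at 38.6, 58.7 and 88.6 CPM against 189, 185 and 183 CPM in cRGCs (log2 fold change −1.58, SE 0.25, adjusted p = 0.00132). Like Slc18a2 it was lowest in iRGC replicate 1 and highest in replicate 3 among the iRGC libraries, and its cRGC values differed by little. Per kb of exon it exceeded Slc6a4 in all 6 libraries, by 29.7, 2.79 and 1.21 times in iRGCs and by 6.23, 8.26 and 9.48 times in cRGCs. The dopamine and noradrenaline transporters Slc6a3 and Slc6a2 did not reach 1 CPM in any library and were not tested, and Slc22a2 had no read.

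Tetrahydrobiopterin is the cofactor of the hydroxylases TH and TPH. Of its 8 genes 7 were tested, and 3 were higher in iRGCs and 1 lower. Among the higher ones, the recycling enzyme gene Pcbd2 was higher by 1.04 on the log2 scale (adjusted p = 0.074) and the synthesis enzyme gene Spr by 0.69 (SE 0.21, adjusted p = 0.0267). Pcbd1, whose product acts as that of Pcbd2 does, fell by 0.86 on the log2 scale (adjusted p = 0.0114). Gch1, the rate-limiting enzyme of cofactor synthesis, had 0.308 to 2.32 CPM over the 6 libraries and was not past the threshold (adjusted p = 0.636), and Qdpr had the highest CPM, at 43.7 to 65.9 CPM (adjusted p = 0.155).

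Among other serotonin receptors, 5 of 13 were tested and 1 was past the threshold. Htr5a, an inhibitory receptor, had 2.73, 0.587 and 2.30 CPM in iRGCs and 8.30, 6.59 and 5.45 CPM in cRGCs (log2 fold change −1.85, SE 0.58, adjusted p = 0.0307), with an adjusted p-value of 0.103 without cRGC replicate 1. None of the 5 was past the threshold in the other direction. Drd1, the stimulatory D1 receptor, was higher in iRGCs, with 10.2, 8.99 and 9.30 CPM in iRGCs and 5.19, 2.90 and 2.52 CPM in cRGCs (log2 fold change 1.42, SE 0.36, adjusted p = 0.0125).

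Of 9 adrenergic receptor genes 6 were tested. The inhibitory Adra2a was lower in iRGCs, at 6.08, 7.63 and 9.74 CPM against 23.0, 13.4 and 25.8 CPM (log2 fold change −1.41, SE 0.30, adjusted p = 0.00534). The excitatory Adra1a and Adra1d were higher, by log2 fold changes of 2.82 (adjusted p = 0.0578) and 1.54 (adjusted p = 0.071), at levels under 4 CPM. These 2 calls and that of Pcbd2 were lost in at least 6 of the alternatives tried. Of 5 histamine and trace amine receptor genes 2 were tested and neither was past the threshold, and Hrh3 had the highest CPM, at 0.192 to 2.40 CPM.

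Of 11 transcription factors of monoamine neurons, Nr4a2, which dopamine neurons and amacrine cells use, was higher in iRGCs, at 12.3, 18.3 and 15.0 CPM against 4.11, 6.49 and 8.29 CPM (log2 fold change 1.27, SE 0.31, adjusted p = 0.0105). Fev, the defining factor of serotonin neurons, and En1 had no read in any library, and Gata3, Lmx1a and Lmx1b did not pass the filter.

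**Figure D4:**
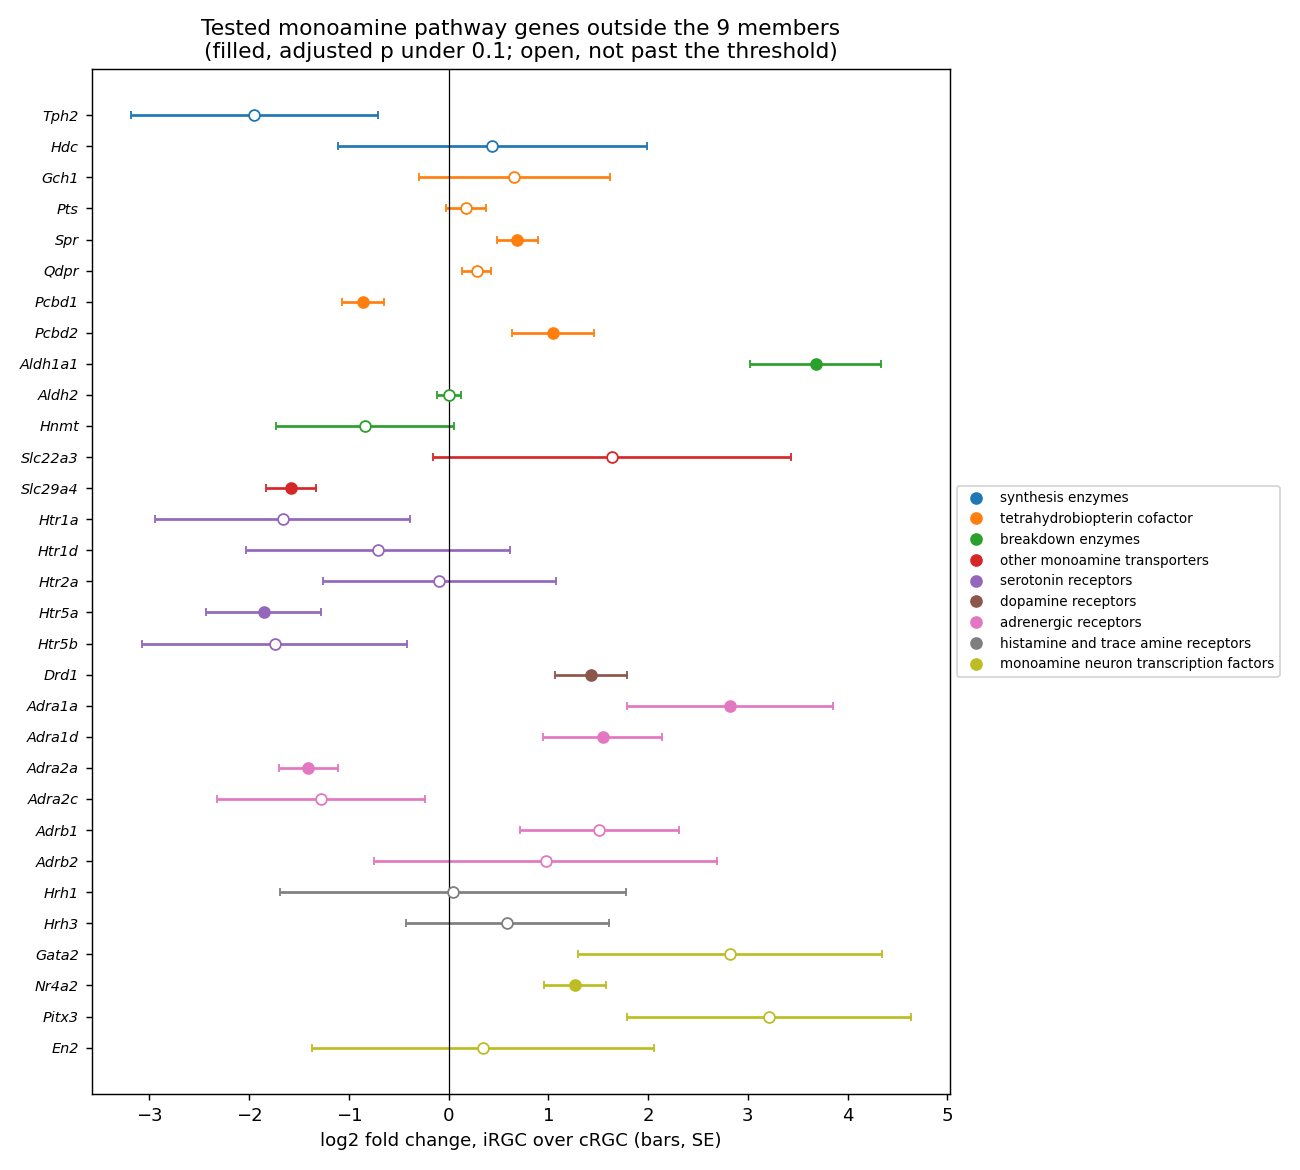
Log2 fold change of iRGCs over cRGCs with its SE for tested pathway genes outside the 9, coloured by role, filled where the adjusted p-value is under 0.1. Tph1, with no read in cRGCs, and genes not reported here are left out. Slc29a4, Htr5a, Adra2a and Pcbd1 lie below 0, and Aldh1a1, at 3.68, has the largest filled value.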

How the data were processed

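RNA-seq libraries of 3 iRGC and 3 cRGC samples were analysed. The 13 ATAC-seq samples were not analysed here. Reads had been mapped to mm10 by the authors (HISAT2 2.1.0) and assigned to Ensembl GRCm38 genes, release 89 (HTSeq 0.11.1). They deposited raw counts per gene, 1 table per library. The strand setting is not given in the sources used here. HTSeq's tallies that name no gene were left out. Reads overlapping no gene were 12.3% to 23.2% of uniquely aligned reads, lowest in iRGC replicate 3. GENCODE M21 gave symbols, gene positions and exonic lengths, and RefSeq gave promoters.

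Counts of 15941 genes passing filterByExpr were fitted by population with the edgeR 4.0.16 quasi-likelihood test in R 4.3.3, with TMM factors of 1.03 to 1.10 in iRGCs and 0.921 to 0.952 in cRGCs. Benjamini-Hochberg adjusted p-values, over all tested genes, counted as past the threshold under 0.1. CPM used reads on tested genes times the TMM factor. SE is the absolute log2 fold change over the square root of F. The biological coefficient of variation was 36.3%. Likeness is Pearson's r of log2(CPM + 0.5). Geometric means of lists used the same pseudocount. The fit was tested on simulated data in which far fewer genes were changed than were called here, which does not cover a contrast of this extent. No 2 libraries of a population agreed within sampling noise (chi-square per degree of freedom of at least 24.9).

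The 9 genes and all lists were chosen with earlier results of these data known. The text names, besides the 9, pathway genes past the threshold and the most abundant of each group, the nearest tested gene on each side, the 3 genes most like each member with a mean of at least 1 CPM, and the most abundant and the absent genes of each marker list. Some genes of these lists are not reported here. Others were named after their values were seen. Alternatives were DESeq2 1.42.0, limma 3.58.1 (voom), other size factors, other filters and thresholds, each library left out and the replicate number as a block.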

Additional observations from a re-analysis of the deposited data

How the results depend on the processing

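Of the 13 pathway genes past the threshold, 8 kept their call and direction under every alternative fit at the same threshold, among them Spr, Pcbd1, Aldh1a1, Slc29a4, Drd1, Adra2a and Nr4a2. Adra1a, Adra1d, Pcbd2, Htr5a and Tph1 lost it under 1 or more of them, and none reversed. With at least 10 counts required in every library, Tph1 and Adra1a were not tested. Library totals in place of TMM moved the median log2 fold change of all genes from −0.0031 to 0.20 and the share of calls that were higher in iRGCs from 50.1% to 64.2%. With an absolute log2 fold change above 1 required as well, 3688 genes were called, 1930 higher and 1758 lower, against 7395, 3707 higher and 3688 lower. The replicate numbers did not pair the samples (correlations of same-numbered deviations −0.014, −0.045 and −0.067), and with them as a block 5 pathway genes were higher in iRGCs against 9. The fold changes of Slc6a4 were −0.86 with limma voom and −0.54 with the block, against 0.41, and that of Slc18a1 was −1.08 with limma voom. With 1 library left out, log2 fold changes ranged from −4.29 to −2.71 for Th and from −1.08 to 0.65 for Ddc. Relative to the RGC list, a scale added after the data were seen, differences in mean log2(CPM + 0.5) were 0.76 for Slc6a4, −0.062 for Slc18a2, −1.31 for Th, −0.46 for Htr1b, 1.42 for Maoa, 0.94 for Maob, 1.45 for Slc18a1, 1.44 for Ddc and 1.96 for Drd2. The list's own difference was −1.57, and means of logs in place of the edgeR fit, with no list, already took Th from −3.46 to −2.88 and turned the direction of Slc6a4 from 0.41 to −0.81 and of Ddc from 0.16 to −0.13. The causes were not tested. At 6 to 79 reads of Ddc or 0 to 43 of Slc18a1 per library, small changes were not detectable.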
